A study of Mus musculus with 9 samples.

Results

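The genes described here are 45 mouse genes of the cell cycle and DNA replication, chosen by symbol from a list and matched by Ensembl gene identifier in a table of 57126 genes. All 45 were found and all 45 passed the filter on low counts, as did 17555 genes in all. RNA was measured by sequencing in mouse plasmacytoid dendritic cells (pDCs), the immune cells best known for making type I interferon in large amounts, that had been sorted by flow cytometry. The groups were cells given phosphate-buffered saline (PBS, the vehicle), cells given mitochondrial DNA (mtDNA) and cells given oxidized mitochondrial DNA (Ox-mtDNA), with 3 libraries each, numbered 1 to 3, and 9 in all. The labels give no strain, sex, age, tissue of origin, dose or duration, and they do not say whether the replicates came from separate animals or cultures, so the p-values here reflect only how far these 9 libraries vary, which may be technical variation. Every group consisted of the same sorted cell type, and the sort is the limit of each group as a model, since cells of other types can remain in a sorted pool.

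The cell cycle runs from G1, when a cell decides whether to divide, through S phase, when it copies its DNA, to mitosis. In G1, D-type cyclins with Cdk4 or Cdk6 and E-type cyclins with Cdk2 inactivate the retinoblastoma protein, which frees E2F factors to switch on genes of DNA synthesis. A later wave of genes for spindle, chromosome and mitotic kinase proteins is transcribed in G2 and mitosis. Mature pDCs are known as largely non-dividing cells that arise from dividing bone marrow precursors. The members were therefore split by textbook role into 12 genes of G1 control, 13 genes of S phase and 20 mitotic genes.

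The S phase and mitotic groups differed in short promoter motifs, and stretches from 5 promoters, picked after the motifs were counted, are shown because they carry the letters that differ between the groups. RefSeq promoters (GRCm38.p6, 250 bases before to 50 after the start) were found for 35 of the 45 members, and none was at hand for Ccnd1, Ccnd2, Ccne2, Rb1, Mcm4, Aurkb, Ccna2, Cdc25c, Foxm1 and Tpx2. For 29 of the 35, bases after the start were also found near the opening of a GENCODE M21 transcript. The starts of the others were not matched in this way. In the stretches below, which end at the base before the start and read 5′ to 3′ along the gene, capitals mark CHR letters (TTTGAA or TTCGAA, the cell cycle genes homology region), CCAAT and E2F letters (TTTGGCGC, TTTCCCGC, TTTCGCGC or TTTGCCGC), each searched on both strands. The mitotic genes are Top2a (chr11:99024190-99024299, minus strand), Kif11 (chr19:37376272-37376381, plus strand) and Cdk1 (chr10:69352913-69353052, minus strand). The S phase genes are the helicase subunits Mcm6 (chr1:128359706-128359815, minus strand) and Mcm5 (chr8:75109349-75109508, plus strand).
Top2a: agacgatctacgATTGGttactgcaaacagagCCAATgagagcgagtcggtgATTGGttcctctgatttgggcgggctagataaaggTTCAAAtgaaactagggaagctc
Kif11: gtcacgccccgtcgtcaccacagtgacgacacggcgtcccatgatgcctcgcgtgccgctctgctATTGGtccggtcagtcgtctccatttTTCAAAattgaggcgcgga
Cdk1: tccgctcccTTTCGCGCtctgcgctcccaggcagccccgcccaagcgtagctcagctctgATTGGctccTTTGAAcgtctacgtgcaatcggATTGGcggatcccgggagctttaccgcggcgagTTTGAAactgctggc
Mcm6: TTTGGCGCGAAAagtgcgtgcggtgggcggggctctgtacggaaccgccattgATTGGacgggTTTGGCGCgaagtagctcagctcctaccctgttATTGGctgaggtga
Mcm5: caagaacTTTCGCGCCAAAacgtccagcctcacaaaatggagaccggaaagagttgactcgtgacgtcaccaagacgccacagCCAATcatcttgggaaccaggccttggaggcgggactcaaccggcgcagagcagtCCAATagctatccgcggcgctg
The Top2a and Kif11 stretches hold a CHR on the other strand (TTCAAA) with CCAAT or its reverse (ATTGG) upstream, and Cdk1 holds CHR, CCAAT and E2F letters. In Mcm6 and Mcm5 no CHR is capitalised, and an E2F word of each strand overlaps another.

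CHR letters were in 12 of 15 mitotic promoters (80%), in 2 of 12 S phase promoters (16.7%) and in 0 of 8 G1 promoters, against 19.2% of the 32851 promoters of the table. CCAAT letters were in 14 of 15 mitotic, 8 of 12 S phase and 3 of 8 G1 promoters, against 37.4% of all. E2F letters were most frequent in the S phase group, with 6 of 12 S phase promoters (50%), 2 of 8 G1 promoters and 1 of 15 mitotic promoters, that of Cdk1, against 2.26% of all. CHR and CCAAT together were in the same 12 mitotic promoters, against 7.52% of all. Each member counted with 1 promoter, whereas the shares of all were over every promoter listed, without reduction to 1 per gene. A match is a description of letters in a 300-base window and shows no binding.

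Total counts ranged from 16029951 to 25378884 per library. Levels are given as CPM, counts scaled to 1000000 per library after normalisation, and 3 values in a row are those of replicates 1, 2 and 3. Siglech, a lectin receptor gene used as a mouse pDC marker, lay between 1190 and 2440 CPM in the 9 libraries. Some other pDC genes varied far more. Tlr9 lay between 11.6 and 396 CPM, Pacsin1 between 5.62 and 276 CPM and Irf8 between 389 and 4080 CPM, each lowest in PBS replicate 3. Of 15 pDC genes, 5 were lowest in that library and 6 were highest there. Of other lineages, 8 erythroid genes together were at 0.489 to 1.11 CPM and 6 natural killer cell genes together at 0.961 to 3.44 CPM. Neutrophil genes (6) summed to 1.16 to 11.2 CPM. T cell genes (8) summed to 38.8 to 81.7 CPM, with Cd3e at 0 to 1.14 CPM and Cd247 at 10.9 to 33.5 CPM. Plasma cell genes (5) summed to 170 to 411 CPM, with Jchain at 135 to 341 CPM and Tnfrsf17 at 0.159 to 1.75 CPM. B cell genes (10) summed to 166 to 724 CPM. Monocyte and macrophage genes (7) summed to 491 to 1934 CPM, with Ccr2 at 168 to 1490 CPM and Fcgr1 at 0.338 to 2.26 CPM. Conventional dendritic cell genes (9) summed to 433 to 905 CPM, with Itgax at 248 to 667 CPM and Xcr1 at 0.608 to 4.49 CPM. The replicate 3 libraries stood apart from the other 6 on the first principal component (70.7% of the variance), with Xist at 818 to 2090 CPM against 0 to 0.846 CPM and Y chromosome genes together at 1.18 to 5.52 CPM against 259 to 378 CPM. Sex, as read from these genes, went with replicate number in every group, and the 2 cannot be told apart. Ox-mtDNA replicate 2 also differed from Ox-mtDNA replicate 1 in most S phase and mitotic members, so results are given with and without it, and with replicates 1 and 2 only.

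Cell cycle transcripts were abundant in every group, with Pcna and Top2a the members with the most RNA per exon length, but no member passed the test in any comparison. Per kilobase of exon and averaged over the 9 libraries, the clamp protein gene Pcna stood at 142 CPM per kb, the topoisomerase gene Top2a at 134, Ccnd1 at 107 and Cdk4 at 99.4. They were followed by Cenpa at 69.3 and Mcm7 at 68.3 CPM per kb. At the lower end were Ccne1 at 4.71, Ccne2 at 6.50 and Cdc6 at 6.50 CPM per kb. Between libraries, Cdkn1b varied least, with a highest level 1.62 times its lowest, followed by Pcna at 1.67 and Rb1 at 1.68 times. Cdt1 varied most at 42.1 times, before E2f1 at 23.5, Ccnd3 at 22.4 and Foxm1 at 15.5 times.

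**Figure D1:**
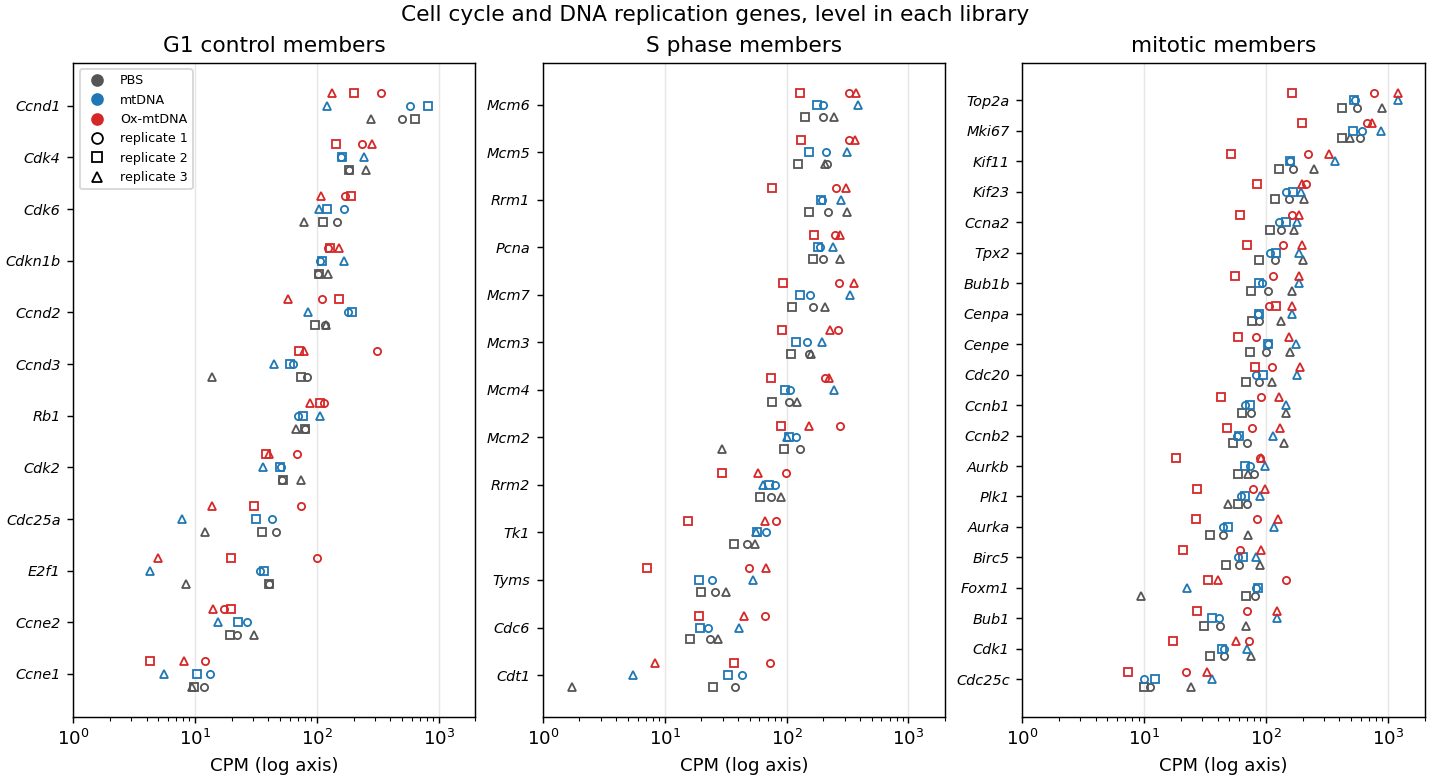
Level of each of the 45 members in each library, in CPM on a log axis, with 1 panel per phase group, colour for treatment and symbol for replicate. The squares of Ox-mtDNA replicate 2 lie at the left end for 17 of 20 mitotic and 8 of 13 S phase members, and the triangles of replicate 3 lie far left for Cdt1, E2f1 and Cdc25a.

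Among the G1 genes, cyclins D1 and D3 had the largest fold changes after Ox-mtDNA in the fit of all 9 libraries, in opposite directions, and neither passed the test. Ccnd1, which encodes cyclin D1, the growth factor responsive partner of Cdk4 and Cdk6 (ENSMUSG00000070348, GRCm39 chromosome 7, 144483668 to 144493606), was at 498, 641 and 276 CPM in PBS, 576, 819 and 120.0 CPM after mtDNA and 333, 203 and 134 CPM after Ox-mtDNA. All 3 Ox-mtDNA libraries were below PBS replicates 1 and 2, but PBS and Ox-mtDNA overlapped through PBS replicate 3. Its log2 fold change was -1.08 (SE 0.67, edgeR adjusted p = 0.701) for Ox-mtDNA against PBS, 0.10 (SE 0.67) for mtDNA against PBS and -1.18 (SE 0.68) for Ox-mtDNA against mtDNA. For every member the adjusted p was 1 in the comparisons of mtDNA with PBS and of Ox-mtDNA with mtDNA (edgeR quasi-likelihood, Benjamini-Hochberg), so it is not repeated for those below. With replicates 1 and 2 only, Ccnd1 stood at -1.08 (SE 0.33, edgeR adjusted p = 0.232) for Ox-mtDNA against PBS. With 1 library left out at a time, its fold change stayed negative, from -0.81 without PBS replicate 2 to -1.49 without Ox-mtDNA replicate 1 against PBS, and from -0.65 without mtDNA replicate 2 to -1.62 without mtDNA replicate 3 against mtDNA.

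Cyclin D3, from Ccnd3 (ENSMUSG00000034165, GRCm39 chromosome 17, 47815976 to 47910616), went the other way in part. It was at 83.2, 73.6 and 13.9 CPM in PBS, 63.3, 60.1 and 44.8 CPM after mtDNA and 309.9, 71.1 and 78.8 CPM after Ox-mtDNA. The lowest Ox-mtDNA library was above the highest mtDNA library, whereas PBS and Ox-mtDNA overlapped. The log2 fold changes were 1.43 (SE 0.76, edgeR adjusted p = 0.616) for Ox-mtDNA against PBS, -0.02 (SE 0.75) for mtDNA against PBS and 1.45 (SE 0.77) for Ox-mtDNA against mtDNA, with replicate differences of 2.28, 0.24 and 0.81 in the last. The size rested on Ox-mtDNA replicate 1, without which Ccnd3 was at 0.41 against PBS and 0.43 against mtDNA. Without PBS replicate 3 it was at 0.96 against PBS. Cyclin D2, from Ccnd2, was at 116, 96.4 and 118 CPM in PBS, 180.4, 194 and 85.0 CPM after mtDNA and 110.4, 151 and 58.4 CPM after Ox-mtDNA, and its fold changes were -0.05 (SE 0.42, edgeR adjusted p = 1), 0.48 (SE 0.42) and -0.53 (SE 0.42) in the same order of comparisons. The highest Ccnd2 levels of the 9 libraries were those of mtDNA replicates 1 and 2, and the lowest that of Ox-mtDNA replicate 3.

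Set against each other per exon length, Ccnd1 made up 72.2%, 79.4% and 76.1% of the RNA of the 3 D cyclins in PBS, 74.5%, 80.4% and 50.9% in the mtDNA libraries, and 38.3%, 51.3% and 46.7% in the Ox-mtDNA libraries. The share of Ccnd3 was 18.5%, 13.9% and 5.84% in PBS, 12.5%, 9.0% and 29.0% in the mtDNA libraries, and 54.6%, 27.5% and 42.0% in the Ox-mtDNA libraries. The shares of PBS and Ox-mtDNA did not overlap for either gene, while mtDNA replicate 3 lay within the Ox-mtDNA range for both. The shares were looked at after the levels and were not tested. Strand was not used in counting, and a fragment over overlapping genes was counted for each, so reads of LTO1 (818 shared exon bases with Ccnd1) and of Bysl (361 with Ccnd3), on the opposite strand, cannot be told apart from these genes there.

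**Figure D2:**
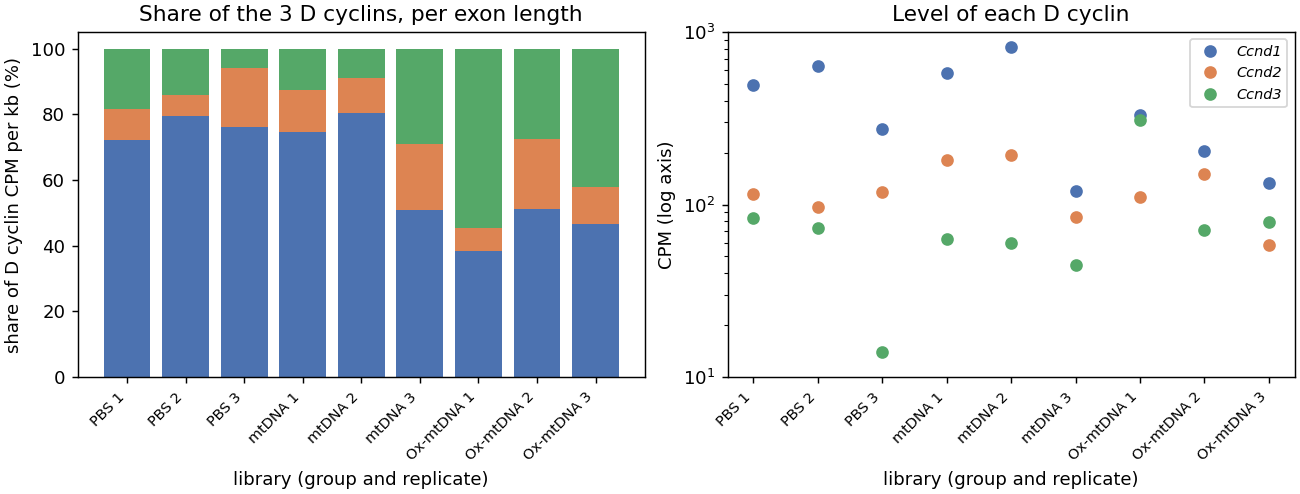
Left, the share of each D cyclin gene in their summed CPM per kb of exon, in percent, for each library; right, the CPM of each gene on a log axis. Ccnd1 holds 72.2% to 79.4% in PBS and 38.3% to 51.3% after Ox-mtDNA.

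Against both PBS and mtDNA, the kinase partners of the D cyclins had smaller fold changes after Ox-mtDNA than Ccnd1 and Ccnd3. Cdk4 was at 184, 182 and 253 CPM in PBS, 158, 159.5 and 242 CPM after mtDNA and 236, 142 and 281 CPM after Ox-mtDNA, with fold changes of 0.09 (SE 0.33, edgeR adjusted p = 1) for Ox-mtDNA against PBS, -0.15 (SE 0.33) for mtDNA against PBS and 0.24 (SE 0.33) for Ox-mtDNA against mtDNA. Cdk6, the other D cyclin kinase, was at 145, 113 and 79.1 CPM in PBS, 168, 120.2 and 104 CPM after mtDNA and 169, 189 and 107 CPM after Ox-mtDNA, and its replicate differences for Ox-mtDNA against PBS were 0.22, 0.74 and 0.44. Those correspond to 0.47 (SE 0.34, edgeR adjusted p = 0.782), beside 0.22 (SE 0.34) for mtDNA against PBS and 0.25 (SE 0.34) for Ox-mtDNA against mtDNA. Cdk4 held 80.9% to 94.7% of the summed CPM per kb of Cdk4 and Cdk6 in every library. Cdk2, the kinase of the E cyclins, was at 51.7, 52.8 and 74.7 CPM in PBS, 50.9, 49.6 and 36.4 CPM after mtDNA and 68.9, 37.9 and 40.5 CPM after Ox-mtDNA, and every mtDNA library was below every PBS library, with -0.39 (SE 0.32) for mtDNA against PBS.

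For 2 brakes of G1 the difference between Ox-mtDNA and PBS was of nearly the same size in each replicate, though neither passed the test. Of all genes tested, 7.39% had Ox-mtDNA above PBS without overlap and 20.0% had 3 positive replicate differences. Other brakes of G1, described below, went both ways. Cdkn1b, which encodes the Cdk inhibitor p27 (ENSMUSG00000003031, GRCm39 chromosome 6, 134897364 to 134902476), was at 103, 105 and 123 CPM in PBS, 105, 109.7 and 166 CPM after mtDNA and 123, 128 and 151 CPM after Ox-mtDNA. Each Ox-mtDNA library was above each PBS library, the nearest being 123.4 and 122.6 CPM. The differences of 0.27, 0.29 and 0.30 in replicates 1, 2 and 3 were nearly equal. The fold change was 0.29 (SE 0.26, edgeR adjusted p = 0.866) for Ox-mtDNA against PBS, 0.21 (SE 0.26) for mtDNA against PBS and 0.08 (SE 0.26) for Ox-mtDNA against mtDNA.
Rb1, the retinoblastoma protein gene that holds E2F factors back (ENSMUSG00000022105, GRCm39 chromosome 14, 73432942 to 73563262), was at 79.8, 79.8 and 67.8 CPM in PBS, 70.2, 76.9 and 106 CPM after mtDNA and 114, 107 and 88.5 CPM after Ox-mtDNA. Again the Ox-mtDNA and PBS groups did not overlap, with differences of 0.51, 0.42 and 0.38 and a fold change of 0.44 (SE 0.25, edgeR adjusted p = 0.639). For mtDNA against PBS it was 0.15 (SE 0.25) and for Ox-mtDNA against mtDNA 0.29 (SE 0.25). Rb1 shares 105 exon bases with Rcbtb2 on the opposite strand.

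E2f1, an activating E2F factor, was at 40.1, 40.3 and 8.35 CPM in PBS, 34.2, 36.9 and 4.24 CPM after mtDNA and 99.7, 19.6 and 5.0 CPM after Ox-mtDNA. The highest level was in Ox-mtDNA replicate 1 and the 3 lowest were the replicate 3 libraries. Fold changes were 0.48 (SE 1.15, edgeR adjusted p = 1) for Ox-mtDNA against PBS, -0.24 (SE 1.15) for mtDNA against PBS and 0.72 (SE 1.16) for Ox-mtDNA against mtDNA, and without Ox-mtDNA replicate 1 the first was -1.28. The phosphatase gene Cdc25a, which activates Cdk2, ranged from 7.78 CPM in mtDNA replicate 3 to 74.2 CPM in Ox-mtDNA replicate 1. The E cyclin genes stayed low, Ccne1 between 4.28 and 13.3 CPM and Ccne2 between 14.1 and 30.2 CPM.

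Of the 13 S phase genes, 9 were highest in Ox-mtDNA replicate 1 or 3 and 8 were lowest in Ox-mtDNA replicate 2. Over all genes tested, 12.7% were highest in Ox-mtDNA replicate 1 and 14.9% in Ox-mtDNA replicate 3, and 18.3% were lowest in Ox-mtDNA replicate 2. Cdc6, which loads the replicative helicase onto origins (ENSMUSG00000017499, GRCm39 chromosome 11, 98798627 to 98814762), was at 23.5, 16.1 and 27.6 CPM in PBS, 22.5, 19.3 and 40.8 CPM after mtDNA and 66.0, 19.2 and 44.9 CPM after Ox-mtDNA. Ox-mtDNA replicates 1 and 3 were above all other libraries, while Ox-mtDNA replicate 2 lay within the PBS range. Its log2 fold change was 0.95 (SE 0.50, edgeR adjusted p = 0.603) for Ox-mtDNA against PBS, with differences of 1.47, 0.24 and 0.69, and 0.66 (SE 0.49) for Ox-mtDNA against mtDNA. Without Ox-mtDNA replicate 2 the first was 1.29 (unadjusted p = 0.0162, edgeR adjusted p = 0.409), and against mtDNA it was 1.01. Cdt1, the other loading factor, was at 37.5, 24.8 and 1.75 CPM in PBS, 42.8, 33.1 and 5.55 CPM after mtDNA and 73.6, 37.0 and 8.31 CPM after Ox-mtDNA, with the 3 replicate 3 libraries far below the rest, and its replicate differences for Ox-mtDNA against PBS were 0.96, 0.57 and 1.97.

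The minichromosome maintenance genes Mcm2 to Mcm7 encode the 6 subunits of the replicative helicase. Mcm2 (ENSMUSG00000002870, GRCm39 chromosome 6, 88860456 to 88875762) was at 129, 94.5 and 29.3 CPM in PBS, 121, 105 and 101 CPM after mtDNA and 276, 90.0 and 154 CPM after Ox-mtDNA, with PBS replicate 3 alone at the bottom. The fold changes of Mcm2 were 1.04 (SE 0.57, edgeR adjusted p = 0.625) for Ox-mtDNA against PBS, 0.37 (SE 0.56) for mtDNA against PBS and 0.67 (SE 0.56) for Ox-mtDNA against mtDNA, and without PBS replicate 3 the second was -0.05. Mcm4 was at 105, 76.5 and 123 CPM in PBS, 107, 97.6 and 245 CPM after mtDNA and 207, 74.6 and 224 CPM after Ox-mtDNA, with 0.73 (SE 0.51, edgeR adjusted p = 0.76) for Ox-mtDNA against PBS and 0.56 (SE 0.51) for mtDNA against PBS.
In Mcm6, whose promoter is printed above, levels were 198, 142 and 248 CPM in PBS, 201, 177 and 384 CPM after mtDNA and 325, 129.9 and 375 CPM after Ox-mtDNA, and mtDNA against PBS gave 0.38 (SE 0.47). Mcm3 ranged from 92.3 to 262 CPM, with 0.33 (SE 0.41) for Ox-mtDNA against mtDNA, Mcm5 from 125 to 363 CPM and Mcm7 from 93.2 to 361 CPM. Mcm3, Mcm4, Mcm6 and Mcm7 were lowest in Ox-mtDNA replicate 2, and Mcm5 in PBS replicate 2. Mcm7 shares exon bases with Cops6 (64) and Ap4m1 (321) on the opposite strand. So do Cdk4 with Tspan31 (641), Pcna with AV099323 (499), Ccna2 with Exosc9 (378), Ccnd2 with Gm43126 (372), Ccne2 with Ints8 (336), Plk1 with Gm44985 (156), Cdk6 with Gm17590 (110), Tk1 with Afmid (83) and Cdc20 with Elovl1 (53).

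Pcna, the sliding clamp of DNA polymerases (ENSMUSG00000027342, GRCm39 chromosome 2, 132091082 to 132095234), was at 201, 165 and 275 CPM in PBS, 188, 179.7 and 239 CPM after mtDNA and 249, 169 and 274 CPM after Ox-mtDNA, and its groups overlapped in all comparisons. Its fold changes were 0.11 (SE 0.29, edgeR adjusted p = 1), -0.08 (SE 0.29) and 0.19 (SE 0.30) for Ox-mtDNA against PBS, mtDNA against PBS and Ox-mtDNA against mtDNA. Of the nucleotide-making enzymes, Rrm2, the inducible subunit of ribonucleotide reductase, was at 74.3, 60.0 and 90.2 CPM in PBS, 80.7, 71.5 and 63.9 CPM after mtDNA and 99.4, 29.4 and 58.3 CPM after Ox-mtDNA. That gave -0.26 (SE 0.42, edgeR adjusted p = 0.979), -0.05 (SE 0.42) and -0.21 (SE 0.42) in the same order, and Ox-mtDNA replicate 2 was the lowest library. The large subunit gene Rrm1 ranged from 76.5 CPM, also in Ox-mtDNA replicate 2, to 314 CPM in PBS replicate 3.
Tk1, the thymidine kinase gene, was at 47.0, 37.2 and 55.2 CPM in PBS, 68.1, 56.9 and 56.3 CPM after mtDNA and 82.4, 15.5 and 66.2 CPM after Ox-mtDNA. Every mtDNA library was above every PBS library, the nearest being 56.3 and 55.2 CPM, and the fold change was 0.38 (SE 0.53) for mtDNA against PBS. Tyms, which makes thymidylate, reached 67.9 CPM in Ox-mtDNA replicate 3 and only 7.14 CPM in Ox-mtDNA replicate 2.

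Of the mitotic genes, 17 of 20 were lowest in Ox-mtDNA replicate 2, against 18.3% of all genes tested. The treatment groups overlapped for all 20 in every comparison. Mki67, the gene of the proliferation marker Ki-67 (ENSMUSG00000031004, GRCm39 chromosome 7, 135291513 to 135318090), was at 594, 419 and 489 CPM in PBS, 614, 515 and 879 CPM after mtDNA and 670.3, 198 and 743 CPM after Ox-mtDNA. Ox-mtDNA replicate 2 was by far the lowest library and mtDNA replicate 3 the highest. The fold changes were 0.10 (SE 0.47, edgeR adjusted p = 1) for Ox-mtDNA against PBS, 0.42 (SE 0.47) for mtDNA against PBS and -0.32 (SE 0.47) for Ox-mtDNA against mtDNA. Top2a, which untangles replicated chromosomes (ENSMUSG00000020914, GRCm39 chromosome 11, 98883769 to 98915015), was at 562, 420.1 and 895 CPM in PBS, 538, 522 and 1206 CPM after mtDNA and 764, 162 and 1207 CPM after Ox-mtDNA, lowest in the same library and highest in Ox-mtDNA replicate 3. It gave 0.18 (SE 0.68, edgeR adjusted p = 1), 0.27 (SE 0.68) and -0.09 (SE 0.68) for the 3 comparisons, and the first was 0.64 without Ox-mtDNA replicate 2 but -0.50 without Ox-mtDNA replicate 3.

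Cyclin A2, from Ccna2, was at 132, 108 and 171 CPM in PBS, 128, 146 and 179.6 CPM after mtDNA and 164, 60.9 and 187 CPM after Ox-mtDNA, with 0.00 (SE 0.41, edgeR adjusted p = 1) for Ox-mtDNA against PBS, 0.15 (SE 0.41) for mtDNA against PBS and -0.14 (SE 0.41) for Ox-mtDNA against mtDNA. Ccnb1, the cyclin B1 gene, was at 75.8, 63.4 and 146 CPM in PBS, 67.8, 73.6 and 146 CPM after mtDNA and 90.5, 43.0 and 128 CPM after Ox-mtDNA. Its fold changes of -0.13 (SE 0.51, edgeR adjusted p = 1), 0.01 (SE 0.51) and -0.14 (SE 0.51) were all within 1 SE of 0. Cdk1, the kinase that both cyclins bind (ENSMUSG00000019942, GRCm39 chromosome 10, 69170976 to 69188768), was at 45.3, 34.7 and 74.7 CPM in PBS, 45.4, 43.7 and 69.3 CPM after mtDNA and 72.2, 17.2 and 56.2 CPM after Ox-mtDNA, with -0.09 (SE 0.53, edgeR adjusted p = 1), 0.03 (SE 0.53) and -0.12 (SE 0.53). All 3 genes were lowest in Ox-mtDNA replicate 2 and none separated the treatments. Ccnb2, the other B cyclin gene, ranged from 48.0 to 141 CPM, and Cdc25c, whose phosphatase activates Cdk1, from 7.30 to 35.8 CPM.

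Foxm1, a transcription factor of the mitotic genes (ENSMUSG00000001517, GRCm39 chromosome 6, 128339930 to 128353109), differed from most mitotic genes in replicate 3. It was at 81.1, 69.0 and 9.34 CPM in PBS, 83.3, 85.3 and 22.3 CPM after mtDNA and 145, 33.1 and 40.2 CPM after Ox-mtDNA, with the replicate 3 libraries of PBS and mtDNA at the bottom rather than near the top. Fold changes were 0.45 (SE 0.90, edgeR adjusted p = 1) for Ox-mtDNA against PBS, 0.26 (SE 0.90) for mtDNA against PBS and 0.19 (SE 0.90) for Ox-mtDNA against mtDNA. Foxm1 shares exon bases with Tex52 (144) and Gm44596 (97) on the same strand.

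In the fit of all 9 libraries no mitotic member had an unadjusted p under 0.05 with edgeR in any comparison. Cenpa, the centromeric histone H3 variant, was at 87.0, 76.4 and 133 CPM in PBS, 86.2, 87.7 and 162 CPM after mtDNA and 105, 121 and 164 CPM after Ox-mtDNA, and its differences for Ox-mtDNA against PBS were 0.27, 0.66 and 0.30. It was the only mitotic member that was not lower in Ox-mtDNA replicate 2 than in Ox-mtDNA replicate 1, and it gave 0.40 (SE 0.36, edgeR adjusted p = 0.867) against PBS and 0.22 (SE 0.36) against mtDNA. Cdc20, an activator of the anaphase-promoting complex, was at 88.4, 68.0 and 112 CPM in PBS, 83.5, 94.7 and 179 CPM after mtDNA and 112, 81.5 and 189.5 CPM after Ox-mtDNA, with 0.51 (SE 0.42, edgeR adjusted p = 0.841) for Ox-mtDNA against PBS and 0.41 (SE 0.42) for mtDNA against PBS.
Aurka, the Aurora A kinase gene, was at 44.5, 35.0 and 71.4 CPM in PBS, 44.3, 48.4 and 115 CPM after mtDNA and 84.5, 26.8 and 125 CPM after Ox-mtDNA, with 0.65 (SE 0.61, edgeR adjusted p = 0.879) for Ox-mtDNA against PBS and 0.46 (SE 0.61) for mtDNA against PBS. Cenpe, a kinetochore motor, was at 99.5, 73.5 and 157 CPM in PBS, 103, 103 and 177 CPM after mtDNA and 82.8, 58.7 and 154 CPM after Ox-mtDNA, and was lower after Ox-mtDNA than after mtDNA in each replicate number, with -0.38 (SE 0.45). The groups of each of these 4 genes overlapped.

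The remaining 8 mitotic members encode kinases, motors and spindle proteins. Aurkb, the chromosomal passenger kinase, lay between 18.3 and 97.4 CPM, and Birc5, its partner survivin, between 20.8 and 90.3 CPM. Plk1, a kinase of mitotic entry, lay between 27.3 and 97.4 CPM. The spindle checkpoint kinase genes Bub1 and Bub1b lay between 27.0 and 123 CPM and between 55.5 and 187 CPM. The spindle motor Kif11 lay between 51.8 and 367 CPM, the cytokinesis motor Kif23 between 84.2 and 212 CPM and the spindle assembly factor Tpx2 between 70.0 and 201 CPM. Each of these 8 was lowest in Ox-mtDNA replicate 2.

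Added up by phase, the SD within each group was larger than any difference between group means for the mitotic and G1 sums. Mitotic members summed to 2686, 2037 and 3521 CPM in PBS, 2603, 2559 and 4612 CPM after mtDNA and 3373, 1213 and 4465 CPM after Ox-mtDNA, means of 2748 ± 744, 3258 ± 1173 and 3017 ± 1655 CPM (SD, n = 3 each). S phase members summed to 1590.0, 1131 and 1763 CPM in PBS, 1565, 1350.0 and 2316 CPM after mtDNA and 2539, 966 and 2532 CPM after Ox-mtDNA, means of 1495 ± 327, 1744 ± 507 and 2012 ± 907 CPM (SD, n = 3 each). In both sums replicate 3 was the highest library of PBS and of mtDNA, and Ox-mtDNA replicate 2 the lowest of all 9. G1 members summed to 1380.0, 1448 and 1065 CPM in PBS, 1489, 1691 and 936 CPM after mtDNA and 1667, 1103 and 980.2 CPM after Ox-mtDNA, with replicate 3 the lowest library of each group. Their means were 1298, 1372 and 1250.0 CPM, with SDs of 204.5, 391 and 366 CPM (n = 3 each). In such bulk samples, fewer cells in a phase and less RNA per cell cannot be told apart.

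**Figure D3:**
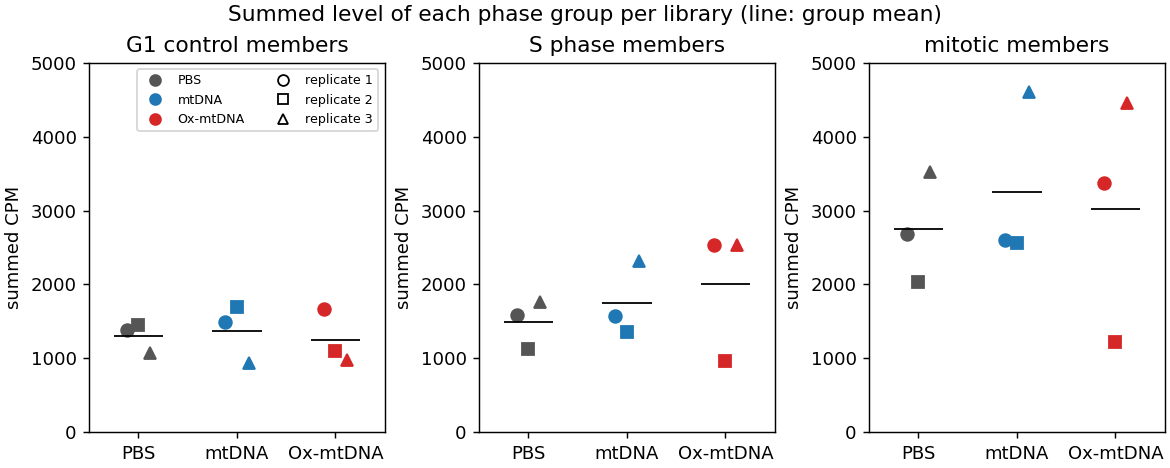
Summed CPM of the members of each phase group, for each library, with a line at each group's mean. Mitotic sums run from 1213 CPM in Ox-mtDNA replicate 2 to 4612 CPM in mtDNA replicate 3, and the mitotic range of each group covers the mitotic means of the other groups.

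Whether oxidized mitochondrial DNA alters pDC transcripts was the question of the Ox-mtDNA and PBS groups. Among cell cycle genes, S phase members had the largest median difference, 0.59 on the log2 scale, with 11 of 13 positive. The mitotic median was 0.07 with 13 of 20 positive, and that of G1 members 0.19 with 7 of 12 positive. Over all 17555 genes tested the median was 0.06 and 53.8% were positive. Fold changes ran from -0.26 (Rrm2) to 1.04 (Mcm2) in the S phase group, from -0.19 (Birc5) to 0.65 (Aurka) in the mitotic group and from -1.08 (Ccnd1) to 1.43 (Ccnd3) in the G1 group. With edgeR, 0 of 45 members passed an adjusted p of 0.05, as did 0 of 17555 genes (0%). At an unadjusted p under 0.05, 0 members stood beside 1032 genes that were higher (5.88%) and 690 that were lower (3.93%). DESeq2 called 370 genes (2.11%) and 0 members, and edgeR with the replicate number as a block called 1 gene (0.00570%) and 0 members. At an unadjusted p under 0.05 the block gave 6 of 45 members, beside 3345 genes (19.1%). Cdt1 (1.19), Ccnd3 (1.43), Cdc6 (0.86), Mcm2 (1.10) and Cdk6 (0.48) had positive log2 fold changes there and Ccnd1 (-1.06) a negative one. Their edgeR adjusted p with the block was 0.157 to 0.262. The block left the S phase median at 0.41 (11 of 13 positive), but put the mitotic median at -0.04 (8 of 20 positive) and the G1 median at 0.00 (6 of 12 positive). With replicates 1 and 2 only, edgeR called 25 of 17151 genes (0.146%) and 0 members.
Groups did not overlap for 2 of 45 members with Ox-mtDNA above PBS, Rb1 and Cdkn1b, against 7.39% of all genes, and for 0 with Ox-mtDNA below PBS, against 8.08%. All 3 replicate differences were positive for 8 members (Cdk6, Rb1, Cdkn1b, Cdc6, Cdt1, Mcm5, Cdc20 and Cenpa), against 20.0% of genes, and negative for 2, Ccnd1 and Cenpe, against 17.6%.

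The S phase and mitotic results for Ox-mtDNA rest on which libraries are used. Median differences in replicates 1, 2 and 3 were 0.78, -0.13 and 0.69 for S phase members, 0.29, -0.53 and 0.33 for mitotic members and 0.31, -0.13 and -0.02 for G1 members. Ox-mtDNA replicate 2 was singled out because most S phase and mitotic members were low in it. Leaving it out therefore raises their fold changes by construction. Without Ox-mtDNA replicate 2, all 13 S phase members and all 20 mitotic members were positive, with medians of 0.92 and 0.40 beside -0.03 over all genes. No gene passed the adjusted threshold in that fit either. Cdc6, Mcm3, Mcm4, Mcm5, Tyms and Tk1 were then higher at an unadjusted p under 0.05 (edgeR adjusted p from 0.409 to 0.416), 6 of 45 members beside 1157 of 18456 genes (6.27%). Without Ox-mtDNA replicate 3 the medians were 0.15 for S phase and -0.31 for mitotic members, and with replicates 1 and 2 only they were 0.43 and -0.02. Without Ox-mtDNA replicate 1 the S phase median was 0.36, the mitotic median -0.03 and the G1 median -0.31, and without PBS replicate 2 the mitotic median was -0.10.

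**Figure D4:**
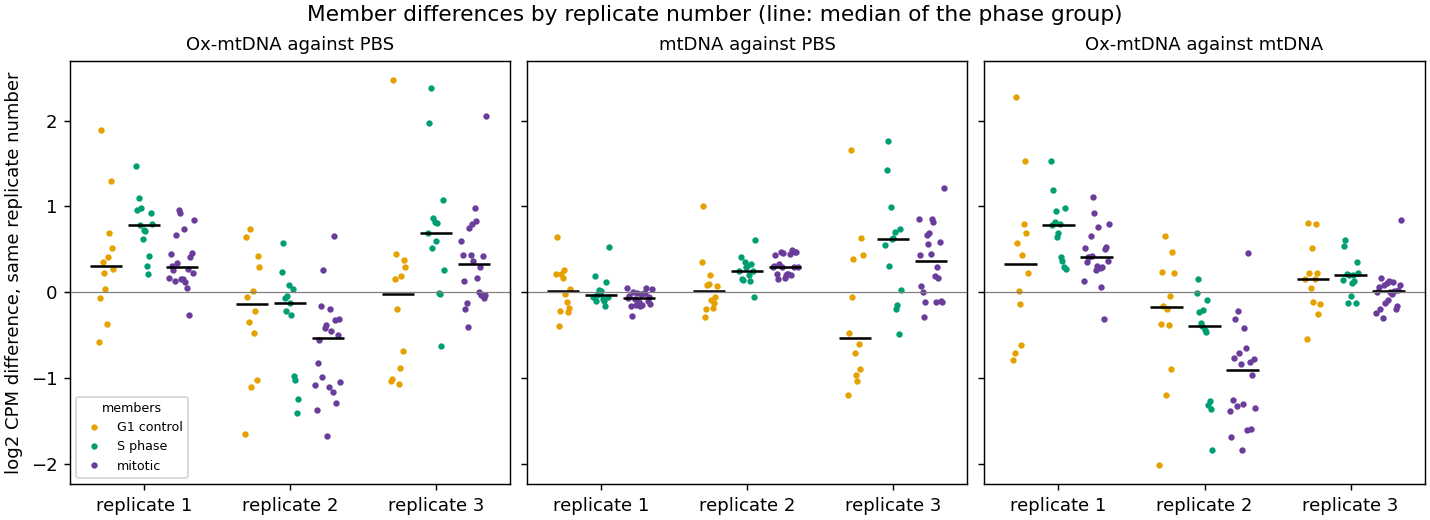
Log2 CPM differences between same-numbered libraries for the 3 comparisons, 1 point per member, coloured by phase group, with lines at the group medians. For Ox-mtDNA against PBS the S phase medians are 0.78, -0.13 and 0.69, and the mitotic median in replicate 2 is -0.53.

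Ox-mtDNA replicate 2 was the lowest of the 9 libraries for 17 of 20 mitotic members (85.0%) and 8 of 13 S phase members (61.5%), but for 2 of 12 G1 members (16.7%), against 18.3% of all genes tested. Compared with Ox-mtDNA replicate 1, its median log2 difference was -1.46 for mitotic, -1.52 for S phase and -0.72 for G1 members, against -0.01 over all genes. Sums of some marker lists also stood apart in the same library. The 15 pDC genes summed to 5242 CPM there, below all other libraries, and to 9542 to 13440.0 CPM in PBS, 7627 to 11490.0 CPM after mtDNA and 5242 to 11810.0 CPM after Ox-mtDNA as ranges. In the fit of Ox-mtDNA against PBS, 12 of 15 pDC genes were negative, as were 12 of 15 in that of mtDNA against PBS. Without Ox-mtDNA replicate 2 in the former, 5 of 15 were positive, and the median was -0.52 instead of -0.48. The 10 B cell genes summed to 724 CPM there, in group ranges of 329.8 to 463, 222 to 267 and 166 to 724 CPM in the same order, and 6 of 10 were positive with that library and 0 of 10 without it. None of those 10 was at 0 in any library. The 7 progenitor genes summed to 47.1 CPM there, in group ranges of 73.6 to 109, 87.1 to 124 and 47.1 to 129 CPM, with Gata2 at 0 to 0.945 CPM. For Ox-mtDNA against PBS, 5 of the 7 were positive, both with Ox-mtDNA replicate 2 and without it. Of the 7, 1 gene (14.3%) was lowest there. Kit, the largest part of the sum there, was at 33.5 CPM there and at 32.7 CPM in Ox-mtDNA replicate 1. Cdkn1a, which encodes the Cdk inhibitor p21 and is no member, was at 777 CPM there, against 65.5 to 258 CPM in the other 8 libraries. The part of these differences in the low S phase and mitotic levels was not tested.

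The comparison of mtDNA with PBS asked what unoxidized mitochondrial DNA does, and it shares its PBS libraries with the comparison above. The differences were small and mostly positive in the S phase and mitotic groups. S phase members had a median of 0.33 with 10 of 13 positive, mitotic members 0.20 with 19 of 20 positive, all but Ccnb2, and G1 members -0.05 with 5 of 12 positive. The median of all genes was 0.02, with 52.0% positive. Fold changes ran from -0.08 to 0.56 for S phase, from -0.19 to 0.49 for mitotic and from -0.39 to 0.48 for G1 members. Adjusted calls with edgeR numbered 0 of 45 members and 0 of 17555 genes (0%), and unadjusted p under 0.05 was reached by 0 members, 355 genes that were higher (2.02%) and 105 that were lower (0.598%). DESeq2 called 14 genes (0.0797%) and 0 members.
Groups did not overlap for 1 member with mtDNA above PBS (Tk1), against 5.58% of genes, and for 1 below (Cdk2), against 4.96%. Replicate differences were all positive for 9 members, against 20.8% of genes, and all negative for 4, the G1 genes Cdk2, Cdk4, Cdc25a and E2f1, against 19.4%.
By replicate number, the medians were -0.03, 0.25 and 0.62 for S phase and -0.06, 0.30 and 0.36 for mitotic members. Without mtDNA replicate 3 the fitted medians were -0.12 for S phase and -0.23 for mitotic members. Without PBS replicate 3 the mitotic median was 0.43, and without PBS replicate 2 the S phase and mitotic medians were 0.14 and 0.03. B cell genes were negative in 10 of 10 in this comparison, and their part was not tested.

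Ox-mtDNA against mtDNA asked what oxidation adds. G1 members had a median of 0.17 (8 of 12 positive), S phase members 0.23 (10 of 13 positive) and mitotic members -0.07 (7 of 20 positive), beside 0.04 and 54.2% positive over all genes. The extremes of all members were both D cyclins, Ccnd1 at -1.18 and Ccnd3 at 1.45. With edgeR, 0 of 45 members and 0 of 17555 genes (0%) were called, and 0 members, 162 genes that were higher (0.923%) and 260 that were lower (1.48%) had an unadjusted p under 0.05. DESeq2 called 1 gene (0.00570%) and 0 members. With the replicate block and an unadjusted p under 0.05, 1 member, Ccnd1 (-0.92, edgeR adjusted p = 0.731), stood beside 6.81% of genes. Without Ox-mtDNA replicate 2, which was singled out by the members' own levels, Cdc6 was higher at an unadjusted p of 0.044 (edgeR adjusted p = 0.999), beside 0.878% of 18456 genes. Only Ccnd3 had groups that did not overlap, with Ox-mtDNA above mtDNA, against 2.04% of genes, and 0 members had Ox-mtDNA below mtDNA, against 2.79%. All 3 differences were positive for 4 members (Ccnd3, Cdk6, Cdt1 and Cenpa), against 15.1% of genes, and negative for 3 (Ccnd2, Ccne2 and Cenpe), against 12.7%.
In the same-numbered pairs of libraries the medians were 0.78, -0.39 and 0.20 for S phase and 0.41, -0.91 and 0.01 for mitotic members. The fitted mitotic median was 0.27 without Ox-mtDNA replicate 2, 0.33 without mtDNA replicate 3 and -0.50 without Ox-mtDNA replicate 3. For S phase members the same fits gave 0.59, 0.61 and -0.15. G1 members had a median of -0.24 without Ox-mtDNA replicate 1.

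The phase groups also differed between replicates of 1 treatment. PBS replicate 2 was below PBS replicate 1 for 20 of 20 mitotic and 13 of 13 S phase members, with median log2 differences of -0.38 and -0.48, and for 8 of 12 G1 members (-0.10), beside -0.01 over all genes. PBS replicate 3 was above the mean of replicates 1 and 2 by a median of 0.81 for mitotic and 0.45 for S phase members and below it by a median difference of -0.20 for G1 members, beside 0.07 over all genes. The same difference within mtDNA was 0.84, 0.56 and -0.56. The 6 members with the lowest difference of PBS replicate 3 were picked after the values were seen. They were Cdt1 (-3.79), Foxm1 (-2.94), Ccnd3 (-2.46), E2f1 (-2.20), Mcm2 (-1.90) and Cdc25a (-1.70), and the next was Ccnd1 (-1.03). In mtDNA replicate 3 the same difference was -2.66 for Cdt1, -1.90 for Foxm1, -2.93 for E2f1 and -2.16 for Cdc25a, but -0.46 for Ccnd3 and -0.16 for Mcm2.
The GC content of the longest transcript, known for 45 of 45 members, was 57.8% for Cdt1, 58.3% for E2f1, 56.7% for Ccnd3, 54.6% for Foxm1 and 51.7% for Mcm2, against a median of 47.8% over the members, but 46.0% for Cdc25a. Across the 45 members Pearson's r between GC content and the PBS replicate 3 difference was -0.54, and across 16750 genes it was -0.47. Genes of 1 library share its depth and its preparation and are not replicates, so no p is given. Whether GC content plays a part in the low levels of these members was not tested.

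**Figure D5:**
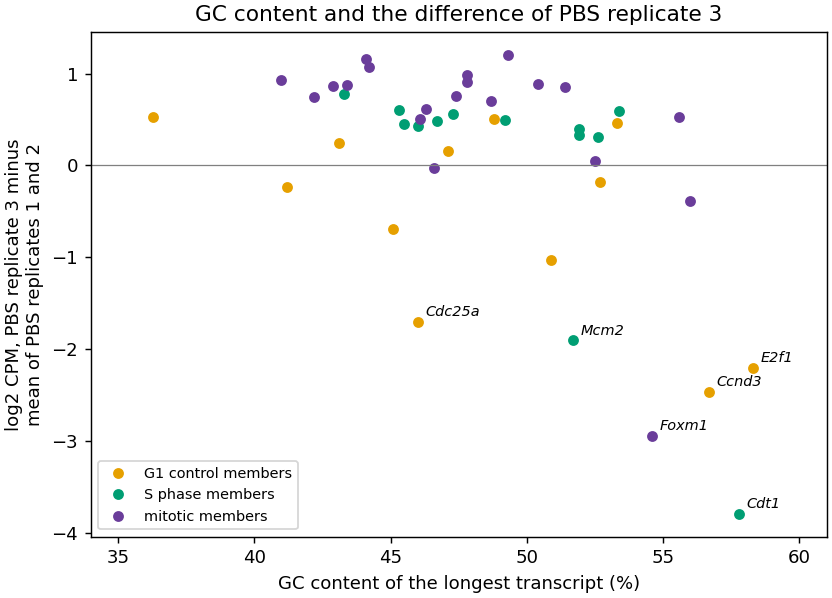
GC content of each member's longest transcript in percent against the log2 CPM difference of PBS replicate 3 from the mean of PBS replicates 1 and 2, coloured by phase group. The 6 named members lie between -3.79 and -1.70, and 17 of 20 mitotic members lie above 0.

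Cell cycle genes outside the 45 were followed in 3 further lists. In a list of 43 other mitotic genes the median fold changes were 0.07 (28 positive) for Ox-mtDNA against PBS, 0.23 (34 positive) for mtDNA against PBS and -0.11 (10 positive) for Ox-mtDNA against mtDNA. Ox-mtDNA replicate 2 was the lowest library for 36 of them (83.7%). In 39 other S phase genes the medians were 0.23 (29 positive), 0.13 (28 positive) and 0.11 (28 positive), and 23 (59.0%) were lowest in that library. In 24 other G1 genes the medians were -0.15 (11 positive), 0.03 (13 positive) and -0.08 (11 positive). With edgeR, 0 of these genes passed an adjusted p of 0.05 in any comparison. At an unadjusted p under 0.05, for Ox-mtDNA against PBS, 2 of 24 other G1 genes were higher (Cdkn2b and Myc) and 1 was lower (Rbl2), 3 of 39 other S phase genes were higher (Orc1 and Chaf1b among them) and 2 were lower (Fen1 and Rfc1), and 0 of 43 other mitotic genes were either. Over all genes tested the shares at that threshold were 5.88% higher and 3.93% lower. DESeq2 called 1 of these genes in that comparison, Rbl2, at an adjusted p of 0.00305, beside 2.11% of all genes.

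By unadjusted p, Rbl2, the retinoblastoma relative p130 of resting cells, led the other G1 genes in all 3 comparisons. For the genes named here the edgeR adjusted p was 1 in the comparisons of mtDNA with PBS and of Ox-mtDNA with mtDNA. Rbl2 was at 91.9, 92.2 and 114 CPM in PBS, 74.9, 75.8 and 40.8 CPM after mtDNA and 39.2, 42.1 and 29.5 CPM after Ox-mtDNA. The PBS libraries were the 3 highest, and its fold changes were -1.43 (SE 0.31, edgeR adjusted p = 0.472) for Ox-mtDNA against PBS, -0.64 (SE 0.31) for mtDNA against PBS and -0.79 (SE 0.31) for Ox-mtDNA against mtDNA. Myc, a driver of growth and G1 entry, was at 9.21, 7.84 and 1.37 CPM in PBS, 11.2, 7.0 and 11.2 CPM after mtDNA and 35.4, 37.8 and 9.80 CPM after Ox-mtDNA, which gave 2.17 (SE 0.75, edgeR adjusted p = 0.472) for Ox-mtDNA against PBS and 1.50 (SE 0.74) against mtDNA. Cdkn2b, a Cdk4 and Cdk6 inhibitor gene, reached 14.4 CPM in Ox-mtDNA replicate 2 and 0.0759 to 2.22 CPM elsewhere, which gave 3.46 (SE 1.17, edgeR adjusted p = 0.472) for Ox-mtDNA and 1.50 (SE 1.11) for mtDNA against PBS. Rbl1, the p107 gene, gave -0.61 (SE 0.29) for Ox-mtDNA against mtDNA, and Tfdp1, an E2F partner, -0.47 (SE 0.40) for mtDNA against PBS.

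Among the other S phase genes, Orc1, a subunit of the origin recognition complex, was at 5.02, 4.07 and 7.21 CPM in PBS, 7.26, 6.50 and 9.08 CPM after mtDNA and 11.9, 15.6 and 10.1 CPM after Ox-mtDNA. It gave 1.20 (SE 0.35, edgeR adjusted p = 0.472), 0.48 (SE 0.35) and 0.71 (SE 0.35) for Ox-mtDNA against PBS, mtDNA against PBS and Ox-mtDNA against mtDNA. Chaf1b, a histone chaperone subunit, gave 1.07 (SE 0.37, edgeR adjusted p = 0.472), 0.45 (SE 0.37) and 0.62 (SE 0.37) in the 3 comparisons. Orc1 and Chaf1b were highest in Ox-mtDNA replicate 2, the library in which most S phase members were lowest. Rfc1, a clamp loader subunit, gave -0.53 (SE 0.37) for mtDNA against PBS.
Of the other mitotic genes, Ckap2l gave -0.54 (SE 0.40, edgeR adjusted p = 0.782) for Ox-mtDNA against PBS and -0.49 (SE 0.40) against mtDNA, and Smc2, a condensin subunit, -0.43 (SE 0.41, edgeR adjusted p = 0.881) and -0.39 (SE 0.41). Tacc3, a spindle protein, gave 0.58 (SE 0.54, edgeR adjusted p = 0.879) for Ox-mtDNA against PBS. Securin, from Pttg1, gave 0.58 (SE 0.39) for mtDNA against PBS and -0.65 (SE 0.39) for Ox-mtDNA against mtDNA, while Kif18b and Smc4 gave 0.58 (SE 0.49) and 0.74 (SE 0.66) for mtDNA against PBS.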

How the data were processed

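Reads were trimmed with fastp 0.23.4, aligned with STAR 2.7.11b to GRCm39 and counted with featureCounts 2.0.1, per the submitters' processing notes. The deposited values are whole-number fragment counts per gene over GENCODE M34 exons, counted without regard to strand and with a fragment over several genes counted for each, per the file headers. From these counts, edgeR 4.0.16 in R 4.3.3 was run on all 9 libraries with 1 coefficient per group, a minimum count of 10 (filterByExpr), TMM scaling and a robust quasi-likelihood test, with Benjamini-Hochberg adjustment over 17555 genes at 0.05. Fold changes are log2, with 6 residual degrees of freedom. CPM are counts scaled to 1000000 per TMM-adjusted library, and replicate differences are on log2(CPM + 0.5).

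The members and lists were chosen with earlier results of these data known. All members were named with levels. Fold changes were given for 17 fixed members and the 3 smallest p-values per phase group and comparison, and for up to 3 genes of each other list. Some genes that this rule names are not reported here. Same-numbered libraries deviated together (correlations of deviations from group means 0.487 to 0.897, against -0.871 to 0.708 for others), so the replicate numbers were taken as pairs for the replicate differences and the block. Every negative correlation involved a replicate 3 library. Among replicates 1 and 2, other-numbered libraries correlated at 0.524 to 0.708 and same-numbered ones at 0.487 to 0.781. The correlations therefore do not show that replicates 1 and 2 were paired by number. DESeq2 1.42.0, limma 3.58.1 (voom), other scalings and filters, the replicate block, and left-out libraries were alternatives. The test scripts were tested on simulated data without any replicate effect. That check does not show what size of change could be detected in these libraries. Promoters are from RefSeq GRCm38.p6 and GC content from GENCODE M21 transcripts; gene coordinates are those of the count table.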

Additional observations from a re-analysis of the deposited data

How the results depend on the processing

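With edgeR, 0 of 17555 genes were called in each of the 3 comparisons, and the same held when each library was left out, when DESeq2 size factors or upper quartile factors replaced TMM, with no filter, with a filter of 1 CPM in 3 libraries and with only the 6 libraries of a comparison. Limma-voom also called 0 genes in each. The DESeq2 Wald test called 370 genes for Ox-mtDNA against PBS, 14 for mtDNA against PBS and 1 for Ox-mtDNA against mtDNA, none a member. The replicate block, which pairs libraries by number, called 1 gene for Ox-mtDNA against PBS, not a member, and changed no other adjusted call; replicates 1 and 2 only called 25 genes there, none a member. The median of G1 members for Ox-mtDNA against PBS was -0.05 with limma-voom (0.19 in the reported fit). The cause was not tested for any of these. No member passed the adjusted threshold under any setting, so no call of a member was gained or lost.

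Small fold changes of some members changed sign with the setting, on the log2 scale. With limma-voom, these were for Ox-mtDNA against PBS Ccna2 -0.13, E2f1 -0.18, Mki67 -0.10 and Top2a -0.17, and for mtDNA against PBS Ccnd1 -0.21 and Ccnd3 0.36. With no filter, these were for Ox-mtDNA against PBS Ccna2 -0.08, and for mtDNA against PBS Ccnb1 -0.06 and Cdk1 -0.04. With at least 1 CPM in 3 libraries, these were for mtDNA against PBS Ccnd3 0.01. With only the 6 libraries of the comparison, these were for mtDNA against PBS Ccnd3 0.02. With the replicate block, these were for Ox-mtDNA against PBS Ccna2 -0.07, E2f1 -0.05, Mki67 -0.06 and Top2a -0.06, and for mtDNA against PBS Ccnd1 -0.14 and Ccnd3 0.28. With replicates 1 and 2 only, these were for Ox-mtDNA against PBS Ccna2 -0.09, Ccnd2 0.31, Cdk1 0.17, Mki67 -0.21 and Top2a -0.08, and for mtDNA against PBS Pcna 0.00, Rb1 -0.12 and Rrm2 0.18, and for Ox-mtDNA against mtDNA Cdk1 0.01. With replicates 1 and 2 only and the replicate block, these were for Ox-mtDNA against PBS Ccna2 -0.18, Ccnd2 0.29, Mki67 -0.38 and Top2a -0.32, and for mtDNA against PBS Pcna 0.02, Rb1 -0.12 and Rrm2 0.20, and for Ox-mtDNA against mtDNA Foxm1 -0.16. With upper quartile factors, these were for mtDNA against PBS Ccnd3 0.07.

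With each library left out in turn, the following log2 values crossed 0 or moved by more than the replicate spread. For Ox-mtDNA against PBS the ranges were the G1 control median -0.31 to 0.29, the mitotic median -0.31 to 0.40, Ccna2 -0.35 to 0.34, Ccnb1 -0.58 to 0.31, Ccnd2 -0.39 to 0.19, Cdk1 -0.50 to 0.30, Cdk4 -0.19 to 0.31, E2f1 -1.28 to 0.99, Foxm1 -0.52 to 0.89, Mki67 -0.25 to 0.48, Pcna -0.09 to 0.32, Rrm2 -0.79 to 0.06 and Top2a -0.50 to 0.64. For mtDNA against PBS the ranges were the S phase median -0.12 to 0.41, the mitotic median -0.23 to 0.43, the G1 control median -0.11 to 0.14, Aurka -0.19 to 0.79, Ccna2 -0.06 to 0.33, Ccnb1 -0.51 to 0.45, Ccnd1 -0.44 to 0.53, Ccnd3 -0.49 to 0.35, Cdc20 -0.08 to 0.59, Cdk1 -0.29 to 0.39, Cdk4 -0.45 to 0.02, Cdk6 -0.02 to 0.44, Cdkn1b -0.10 to 0.31, E2f1 -0.68 to 0.24, Foxm1 -0.24 to 0.70, Mcm2 -0.05 to 0.81, Mcm4 -0.06 to 0.78, Mcm6 -0.12 to 0.57, Pcna -0.29 to 0.13, Rb1 -0.10 to 0.25, Rrm2 -0.20 to 0.09 and Top2a -0.32 to 0.61. For Ox-mtDNA against mtDNA the ranges were the G1 control median -0.24 to 0.18, the S phase median -0.15 to 0.61, the mitotic median -0.50 to 0.33, Ccna2 -0.48 to 0.20, Ccnb1 -0.58 to 0.36, Cdk1 -0.50 to 0.28, Cdk4 -0.03 to 0.52, Cdkn1b -0.07 to 0.37, Cenpa -0.04 to 0.63, E2f1 -1.03 to 1.24, Foxm1 -0.77 to 0.54, Mki67 -0.67 to 0.07, Rrm2 -0.69 to 0.12 and Top2a -0.77 to 0.49. Depth, at 16029951 to 25378884 counts per library, left each member above the count filter. Of the comparisons of a member's value with its reported one, 1142 kept the direction and the call and 112 changed sign.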

Other observations

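In Ox-mtDNA replicate 2, where most S phase and mitotic members were lowest, genes for inhibitors of Cdk enzymes went both ways. Cdkn1a (p21) was at 777 CPM there, against 65.5 to 258 CPM in the other libraries. Cdkn1c, Cdkn2a and Cdkn2b were also highest there, Cdkn1c at 4.44 CPM against 0 to 2.57 CPM. Cdkn2d was lowest there, at 25.3 CPM (highest 198 CPM). Cdkn3 was also lowest there, at 8.36 CPM (highest 34.4 CPM), but it was listed with the other mitotic genes, most of which were lowest there. Cdkn2c was at 21.0 CPM, below the 47.3 to 84.0 CPM of the other replicate 1 and 2 libraries and above the 7.12 to 12.1 CPM of replicate 3, and Cdkn1b was at 128 CPM, within the range of the others. Also highest there were Myc at 37.8 CPM, close to the 35.4 CPM of Ox-mtDNA replicate 1, and the D cyclin kinase gene Cdk6 at 189 CPM. Among replication genes, Gins2, a subunit of the active helicase, was at 79.4 CPM there against 19.7 to 40.8 CPM elsewhere. Of all genes tested, 19.4% were highest in that library. These values come from 1 library, which was picked after the levels were seen.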
